A study of Homo sapiens with 10 samples.

Results

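The genes described here are 10 regulators of epithelial splicing and identity: the splicing regulators ESRP1 and ESRP2, the ETS factors EHF and ELF3, the grainyhead factors GRHL1, GRHL2 and GRHL3, the zinc finger repressors OVOL1 and OVOL2, and TP63. They were taken by name, as all probe sets annotated to these symbols, from a table of arrays of the human breast epithelial line MCF10A. Of the 10 genes, 8 had a probe set named here, with 9 probe sets in all, among 14884 genes measured. ELF3 and TP63 were not analysed here. The list was set up to place a much lower ESRP1 beside higher EHF and GRHL3 in cells that lack histone H2A.X, so the list was chosen by measured values: the differences of these 3 genes between the groups. The differences of the 8 measured genes are therefore given as a description, without a test.

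The groups were 5 arrays of MCF10A cells knocked out for the H2A.X gene and 5 arrays of the parental line, which is wild type for it. MCF10A is an immortalised, non-tumorigenic line with basal features. Both groups grew in the same DMEM/F12 medium with 5% horse serum, 20 ng/ml EGF, insulin, hydrocortisone and cholera toxin, and were harvested after 48 h. The labels do not give the number of knockout clones or say whether the 5 samples of a group were separate cultures, so a p-value below speaks only for the spread among these arrays, and that spread may be technical.

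Epithelial cells keep their identity through a small set of regulators that act on each other's genes. ESRP1 and ESRP2 bind RNA and steer exon choice toward epithelial isoforms of transcripts such as FGFR2, CD44 and CTNND1. EHF and ELF3 belong to the epithelium-specific branch of the ETS family of transcription factors, and the grainyhead factors switch on junction and barrier genes. OVOL1 and OVOL2 repress genes of the mesenchymal programme, and the p63 protein encoded by TP63 maintains basal cells of stratified and glandular epithelia, the mammary gland included. Factors of epithelial-mesenchymal transition (EMT) such as ZEB1 and Slug, the product of SNAI2, bind E-boxes and repress epithelial genes.

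The RefSeq promoter table of GRCh38.p14 matched 5 of the 10 genes, EHF, ELF3, GRHL1, GRHL3 and TP63, with 7 start sites, and the 250 bases before each start were searched. The 4 windows of GRHL3 and EHF, the regulators with the higher signal in knockout cells, are shown here so that the windows with a match, those of GRHL3, can be read beside those without one, those of EHF. All lie on the plus strand. Capitals mark matches, on either strand, to the E-box CACCTG or to the ETS motif AGGAAG. These motifs do not overlap each other in the windows shown.
GRHL3, first start, chr1:24319107-24319356: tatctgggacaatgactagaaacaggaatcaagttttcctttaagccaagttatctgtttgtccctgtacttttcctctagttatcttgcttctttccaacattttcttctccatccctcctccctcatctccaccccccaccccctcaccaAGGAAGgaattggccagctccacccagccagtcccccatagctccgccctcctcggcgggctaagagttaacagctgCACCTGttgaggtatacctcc
GRHL3, second start, chr1:24322790-24323039: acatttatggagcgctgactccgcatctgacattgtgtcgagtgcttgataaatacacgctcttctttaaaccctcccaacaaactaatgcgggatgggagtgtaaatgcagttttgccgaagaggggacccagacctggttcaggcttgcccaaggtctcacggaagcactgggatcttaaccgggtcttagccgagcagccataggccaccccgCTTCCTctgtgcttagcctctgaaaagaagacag
EHF, first start, chr11:34624007-34624256: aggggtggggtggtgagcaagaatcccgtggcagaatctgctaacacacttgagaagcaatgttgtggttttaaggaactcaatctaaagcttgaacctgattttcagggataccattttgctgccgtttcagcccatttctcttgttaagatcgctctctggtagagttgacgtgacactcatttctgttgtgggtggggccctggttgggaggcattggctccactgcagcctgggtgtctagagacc
EHF, second start, chr11:34632316-34632565: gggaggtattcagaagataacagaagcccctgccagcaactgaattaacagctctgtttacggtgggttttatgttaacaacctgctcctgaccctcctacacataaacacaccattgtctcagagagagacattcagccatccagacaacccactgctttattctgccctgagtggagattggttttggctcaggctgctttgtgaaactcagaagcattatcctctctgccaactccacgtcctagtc

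The first GRHL3 window held 1 E-box, which began 21 bases before the start, and 1 ETS motif, which began 98 bases before it. The second GRHL3 window held 1 ETS motif at 34 bases. Neither EHF window held either motif. The ELF3 window, not shown since ELF3 had no probe set named here, held 1 E-box, which began 120 bases before the start. The GRHL1 and TP63 windows held no match, and none of the 7 windows held the grainyhead motif AACNGGTT. Of the 35116 windows of the same length in the table, 17.5% held the E-box, 28.7% the ETS motif and 1.49% the grainyhead motif. A match describes letters in these windows and does not show that a factor binds there.

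The arrays of the 2 groups stood apart across all genes. The array medians were between 4.26 and 4.35 on the log2 scale of the deposited signals. A principal component analysis split knockout from parental arrays on its first axis (65.8% of the variance), and on the second axis knockout replicate 1 lay at 20.2, with the other knockout arrays at -9.47 to -2.52. All signals below are log2 values, and all differences are knockout minus parental. Of 10 markers listed for basal breast epithelium 5 were measured, and 4 rose and 1 fell. KRT5, KRT14, SFN and EGFR rose, with KRT5 at 10.34 ± 0.11 in knockout and 9.57 ± 0.09 in parental cells (SD, n = 5 each). SFN was at 10.64 ± 0.11 in knockout and 10.25 ± 0.05 in parental cells. EPCAM, an epithelial adhesion molecule on the same list, fell by 2.14. In limma's fit, 34.3% of all 14884 genes passed an adjusted p of 0.05 (15.3% of all genes higher and 19.0% of all genes lower), and in 28.2% of all genes the knockout and parental arrays did not overlap. The share that passed was larger among bright genes: it was 55.6% of the 7442 genes whose mean over the 10 arrays lay over the median of all such means (5.49), against 13% of the others, called dim below. All 5 measured basal markers were bright, and 100% of them passed in either direction, beside that 55.6%.

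Of the 8 measured regulators, 3 had knockout and parental arrays that did not overlap: ESRP1, EHF and GRHL3. They are the 3 genes for which the list was assembled, so nothing is read from this count beside the 28.2% of all genes. The other 5, ESRP2, GRHL1, GRHL2, OVOL1 and OVOL2, overlapped and lay within 0.31 of zero. The median difference of the 8 genes was 0.08, against 0.00 over all genes.

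**Figure D1:**
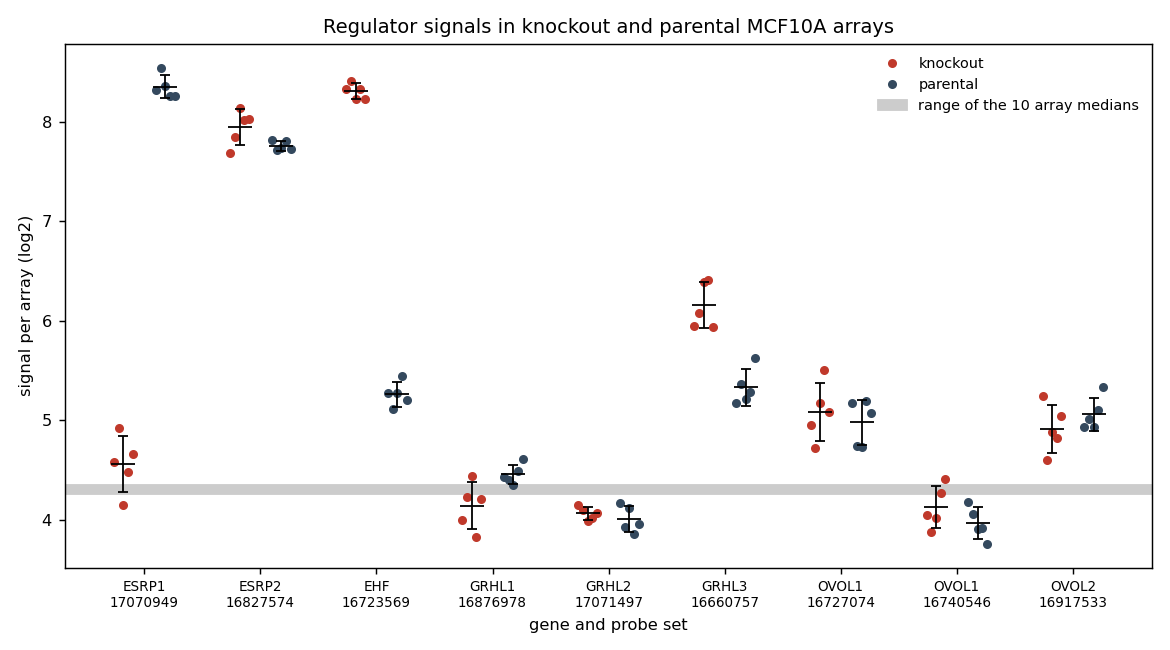
Log2 signal of each array (points) for the 9 probe sets of the 8 measured regulators, knockout in red and parental in dark blue, with the mean and SD of the 5 arrays of a group in black and the range of the 10 array medians as a grey band. ESRP1 sits near the band in knockout cells and at 8.35 in parental cells, EHF sits at 8.31 in knockout cells and at 5.26 in parental cells, and the groups overlap for ESRP2, GRHL1, GRHL2, OVOL1 and OVOL2.

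ESRP1, the splicing regulator that is restricted to epithelial cells, had lost most of its signal in knockout cells. Its values were 4.58, 4.92, 4.15, 4.48 and 4.66 in knockout replicates 1 to 5, against 8.32, 8.54, 8.36, 8.26 and 8.26 in parental replicates 1 to 5 (probe set 17070949). Every knockout array lay at least 3.34 under every parental array. The means were 4.56 ± 0.28 in knockout and 8.35 ± 0.12 in parental cells (SD, n = 5 each), a difference of -3.79 ± 0.12 (SE) or 13.9-fold in signal, the third largest fall of all measured genes. The knockout mean was 0.25 over the mean of its array medians and 1 knockout array lay under its own median, so the knockout level is close to the dim end of the scale, where differences are compressed. In RNA of whole cultures, fewer cells with the transcript and less of it per cell cannot be told apart.

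ESRP2, the paralogue that shares much of the splicing activity of ESRP1, did not follow it. It stood at 7.68, 7.84, 8.14, 8.02 and 8.03 in knockout replicates 1 to 5, against 7.81, 7.71, 7.73, 7.80 and 7.72 in parental replicates 1 to 5 (probe set 16827574). Knockout replicate 1 lay under every parental array and the replicates 2 to 5 lay above every one. The means were 7.94 ± 0.18 in knockout and 7.75 ± 0.05 in parental cells, a difference of 0.19 ± 0.08 (SE). Without knockout replicate 1, the array that stood apart on the second principal component, the difference of ESRP2 was 0.25 and that of ESRP1 was -3.80. Knockout replicate 3 had the lowest ESRP1 and the highest ESRP2 among the 5 knockout arrays. The other arrays did not all follow that order, since replicate 1 had the lowest ESRP2 (7.68) and the middle ESRP1 value (4.58).

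EHF, an ETS factor of glandular and stratified epithelia, was far higher in knockout cells. Its values were 8.33, 8.41, 8.23, 8.33 and 8.23 in knockout replicates 1 to 5, against 5.27, 5.11, 5.27, 5.45 and 5.20 in parental replicates 1 to 5 (probe set 16723569). The gap between the lowest knockout and the highest parental array was 2.77, and the 5 knockout arrays spanned 0.19. The means were 8.31 ± 0.08 in knockout and 5.26 ± 0.13 in parental cells, a difference of 3.05 ± 0.07 (SE) or 8.26-fold in signal, the third largest rise of all measured genes. The parental mean was 0.98 over the mean of its array medians.

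The 3 grainyhead genes differed from each other. GRHL3, known from mice for its part in epidermal barrier formation, stood at 5.95, 6.08, 6.39, 6.41 and 5.94 in knockout replicates 1 to 5, against 5.17, 5.36, 5.21, 5.28 and 5.63 in parental replicates 1 to 5 (probe set 16660757). All knockout arrays were higher, by at least 0.31, a gap smaller than the span of either group, 0.47 in knockout and 0.45 in parental cells. The means were 6.15 ± 0.23 in knockout and 5.33 ± 0.18 in parental cells, a difference of 0.82 ± 0.11 (SE) or 1.77-fold in signal, with 281 genes showing a larger rise. The GRHL3 difference was smaller than those of EHF and ESRP1.

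GRHL1, which is tied to desmosomal genes in the skin of mice, stood at 4.0, 4.23, 4.44, 3.83 and 4.21 in knockout replicates 1 to 5, against 4.43, 4.40, 4.35, 4.49 and 4.61 in parental replicates 1 to 5 (probe set 16876978). Knockout replicate 3 lay inside the parental range and the other 4 knockout arrays lay under it. The difference was -0.31 ± 0.10 (SE), between 4.14 ± 0.23 in knockout and 4.46 ± 0.10 in parental cells, and 4 knockout arrays were under their own array median. GRHL2, the grainyhead gene most closely tied to epithelial junctions in breast cells, lay under the array median on all 10 arrays, at 3.99 to 4.15 in knockout and 3.86 to 4.17 in parental cells (probe set 17071497). Its difference was 0.06 ± 0.07 (SE), and at so dim a signal a change of this transcript could have gone unseen.

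The OVOL genes were dim and overlapped. OVOL1 was measured by 2 probe sets. The brighter one (16727074) ranged from 4.72 to 5.51 in knockout and from 4.73 to 5.19 in parental cells, a difference of 0.11 ± 0.14 (SE), and the dimmer one (16740546) gave 0.16 ± 0.11 with 9 of its 10 values under the array median. With 1 array left out in turn, the OVOL1 difference ran from 0.00 to 0.20. OVOL2 stood at 5.24, 4.60, 4.88, 4.82 and 5.04 in knockout replicates 1 to 5, against 4.93, 5.01, 4.93, 5.10 and 5.33 in parental replicates 1 to 5 (probe set 16917533). Its groups interleaved, with a difference of -0.14 ± 0.11 (SE).

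**Figure D2:**
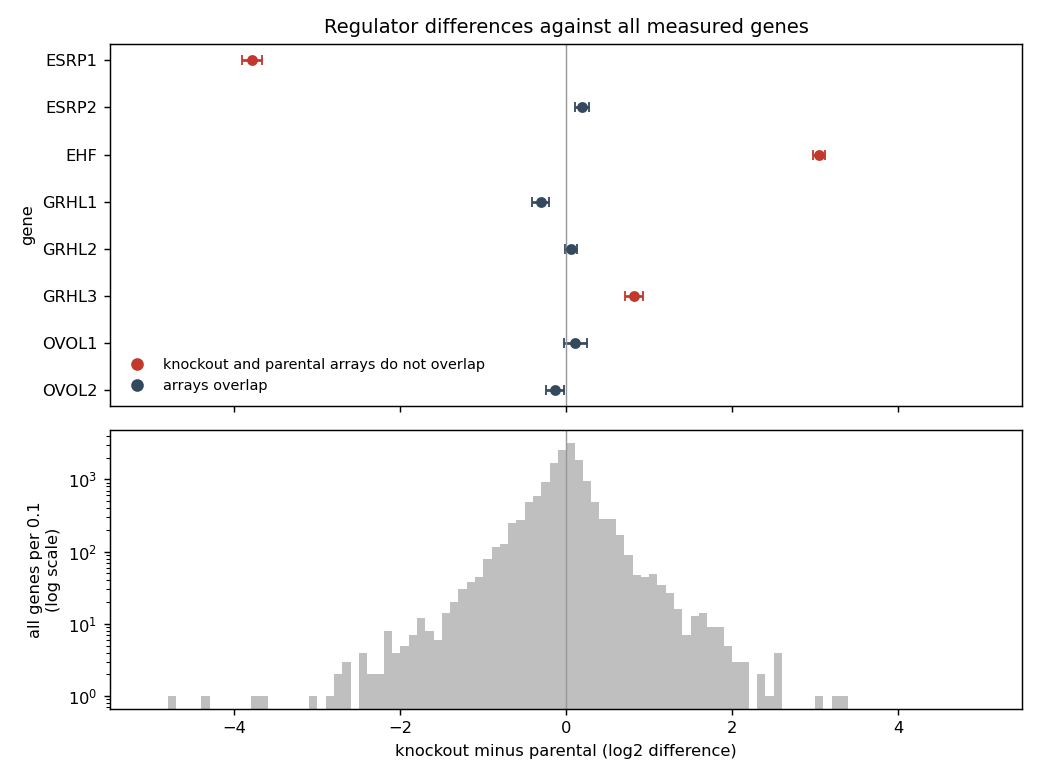
Upper panel, the knockout minus parental log2 difference of the 8 regulators with its SE, in red where the arrays of the groups do not overlap. Lower panel, the number of all 14884 genes per 0.1 of the same difference, on a log scale. ESRP1 at -3.79 and EHF at 3.05 lie at the ends of the distribution, GRHL3 at 0.82 on its shoulder and the other 5 in its centre.

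The genes next to ESRP1, EHF and GRHL3 on their chromosomes moved in both directions. The 5 nearest measured genes on each side were read from the gene order of the RefSeq table. Their counts stand beside 34.3% of all genes that passed, 15.3% upward and 19.0% downward. The share was 55.6% for bright and 13% for dim genes, and the neighbours were a mix of bright and dim genes. ESRP1 lies on chromosome 8, and of its 10 neighbours 4 passed upward, 2 downward and 4 did not pass, with a median difference of 0.12 and a range of -0.44 to 1.44. The genes on either side of it, LINC02894 and DPY19L4, differed by -0.07 and by 0.54 (limma, adjusted p = 0.666 and adjusted p = 2.52e-05). The highest of the 10 was CCNE2, which encodes a cyclin of the G1 to S transition, at 1.44. Its parental mean of 3.98 lay under every array median, so the size of its rise is not exact. RAD54B, 1 of the 4 that passed upward, was at 0.18 (adjusted p = 0.0364) and did not pass in 9 alternatives, which are named in the closing section.

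EHF lies on chromosome 11 next to ELF5, another epithelial ETS gene, which stood at 3.24 ± 0.14 in knockout and 3.23 ± 0.13 in parental cells. Of the 10 neighbours of EHF 4 passed upward, 2 downward and 4 did not pass, with a median of 0.07. The catalase gene CAT (1.32) and FJX1 (1.14) were the highest and APIP (-0.36) the lowest. The 10 neighbours of GRHL3 on chromosome 1 gave 1 rise, NIPAL3 (0.61), 1 fall, STPG1 (-0.45), and 8 that did not pass, with a median of 0.05. These counts, too, stand beside 34.3% of all genes, 55.6% of bright genes and 13% of dim genes that passed.

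**Figure D3:**
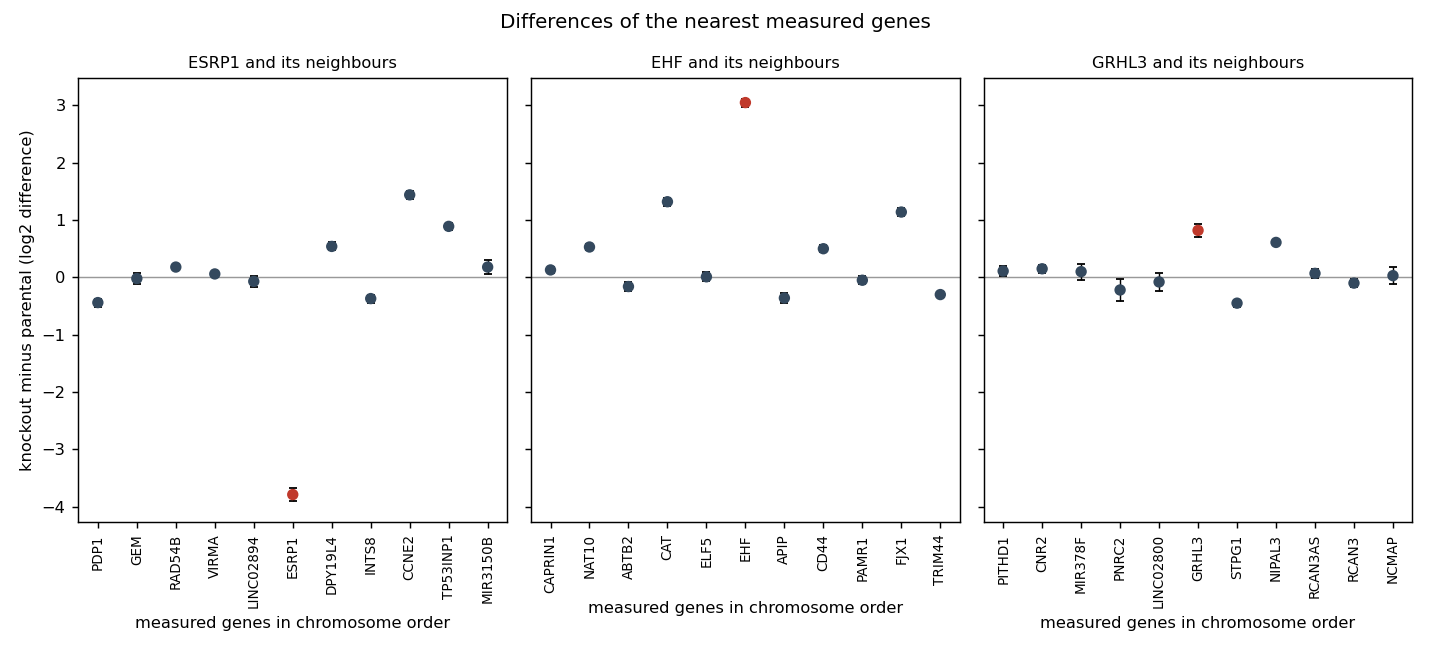
Knockout minus parental log2 difference, with its SE, of ESRP1, EHF and GRHL3 (red) and of the 5 nearest measured genes on each side (dark blue), in chromosome order and equally spaced. ESRP1 at -3.79 and EHF at 3.05 stand apart from neighbours that range from -0.44 to 1.44 and from -0.36 to 1.32. The value of 1.44 is that of CCNE2, whose parental mean lay under every array median, so its size is not exact.

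The genes whose arrays ran most like a regulator were found by the root mean square distance over the 10 arrays, after each gene's own parental mean was subtracted, among the genes with a group mean above 5.49. The measure follows mainly the size of the difference between the groups. Nearest to ESRP1 were LAMP3, a lysosomal membrane protein gene (distance 0.40, difference -3.65), CLGN, a chaperone gene of the endoplasmic reticulum (0.53 and -4.40), and SPX, which encodes the peptide spexin (0.55 and -3.07). The knockout mean of LAMP3 (4.36) and the parental mean of GDA (4.27) lay at or near the array medians, so the sizes of these differences are not exact. LAMP3 was the 1 gene of 7725 within a distance of 0.5 of ESRP1. Nearest to EHF were the basal keratin gene KRT15 (0.22 and 3.24), the guanine deaminase gene GDA (0.28 and 3.34) and the basal keratin gene KRT14 (0.34 and 2.59), and 8 genes lay within 0.5. GRHL3 had 1934 genes within 0.5, with MTMR4, RCL1 and HSD17B7P2 nearest, at distances of 0.14, 0.14 and 0.15.

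Genes tied to the regulators were followed through 8 lists, written from general knowledge with earlier results of these data known, and some genes stand in more than 1 list. Of the 10 measured transcripts that ESRP proteins are reported to splice, 3 rose, 6 fell and 1 did not pass, with a median of -0.22, against 0.00 over all genes. So 90% passed, beside 34.3% of all genes and 55.6% of bright genes, and 9 of the 10 were bright. LSR, which encodes a receptor of tricellular junctions, fell by 0.68, to 8.09 ± 0.03 in knockout against 8.77 ± 0.07 in parental cells, and the kinase gene MAP3K7 fell by 0.49 (adjusted p = 3.82e-07 and adjusted p = 1.26e-05). CD44, a hyaluronan receptor whose variable exons are a known ESRP1 target and which is also a neighbour of EHF, rose by 0.50 and the oxysterol-binding protein gene OSBPL3 by 0.48. FGFR2, named here after its values were seen because its IIIb exon is the best known ESRP target, rose by 0.41, to 5.55 ± 0.08 in knockout against 5.14 ± 0.12 in parental cells. The table gives 1 value per probe set and no exon values, so which isoforms were made could not be read from it.

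Among 17 other splicing regulators 4 rose, 4 fell and 9 did not pass, with a median of 0.04. The 47.1% that passed stand beside 34.3% of all genes and 55.6% of bright genes, and 13 of the 17 were bright. MBNL2, a muscleblind protein that steers exon choice in differentiated cells, showed the largest difference, at 9.25 ± 0.07 in knockout and 10.22 ± 0.06 in parental cells (-0.96 ± 0.06, SE, adjusted p = 3.67e-08). RBM47, another RNA-binding protein of epithelial cells, fell by 0.48 (adjusted p = 8.27e-05). PTBP2 rose by 0.40 and AKAP8 by 0.35. The PTBP2 mean of 7.10 ± 0.27 in knockout cells holds 1 array, replicate 5, at 7.57.

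Other genes of the ETS family moved in both directions. Among its 22 other measured genes there were 2 rises, 6 falls and 14 that did not pass. So 36.4% passed, near the 34.3% of all genes and under the 55.6% of bright genes, and 13 of the 22 were bright. The falls made up 27.3%, beside 19.0% of all genes and 31.5% of bright genes, so nothing is read from these counts about the family. ETS1 stood at 5.51 ± 0.19 in knockout and 6.60 ± 0.15 in parental cells (-1.09 ± 0.10, SE, adjusted p = 1.64e-06), and ETS2 at 9.56 ± 0.05 in knockout and 10.54 ± 0.07 in parental cells (-0.98 ± 0.05, SE, adjusted p = 2.15e-08). Both encode broadly expressed ETS factors downstream of growth factor signalling. FLI1 fell by 0.83 and ETV5 by 0.69, FLI1 being a dim gene in knockout and parental cells alike. The knockout mean of FLI1 (3.89) lay under every array median, so the size of its fall is not exact. Of 10 reported targets of EHF or ELF3, 1 rose, 4 fell and 5 did not pass, with a median of -0.19. The 50% that passed stand beside 34.3% of all genes and 55.6% of bright genes, and 5 of the 10 were bright. The falls made up 40%, beside 19.0% of all genes and 31.5% of bright genes. The iron-binding protein gene LCN2 fell by 1.73, the claudin gene CLDN7 fell by 1.64 and the prostaglandin synthase gene PTGS2 fell by 0.55, while ANGPT1 rose by 0.78, again at a dim signal. The knockout mean of PTGS2 (4.24) lay under every array median, as did both means of ANGPT1 (4.03 in knockout, 3.25 in parental cells). The sizes of the PTGS2 and ANGPT1 differences are therefore not exact.

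Of 13 measured relatives and reported targets of the grainyhead factors, 1 rose, 6 fell and 6 did not pass, with a median of -0.15. The falls made up 46.2% of the list, beside 19.0% of all genes and 31.5% of bright genes, and 7 of the 13 were bright. The occludin gene OCLN (-4.73), EPCAM (-2.14), CLDN7, already counted above, and the membrane protease gene ST14 (-1.36, adjusted p = 9.39e-07) fell, as did the transcriptional regulators LMO4 (-0.50) and TFCP2 (-0.21). OCLN was at 3.53 ± 0.34 in knockout cells, under every array median and so not told from background, and at 8.26 ± 0.10 in parental cells, so the size of its fall is not exact. EPCAM, an epithelial adhesion molecule, was at 6.25, 6.68, 6.31, 6.50 and 6.01 in knockout replicates 1 to 5, under every parental array, and its means were 6.35 ± 0.25 in knockout and 8.49 ± 0.05 in parental cells. The claudin genes CLDN3 and CLDN4 and the desmosomal cadherin gene DSG1, also on the list, were at -0.09, 0.09 and -0.05 and did not pass. The single rise was TFCP2L1, a relative of the grainyhead factors, at 9.14 ± 0.06 in knockout and 8.22 ± 0.08 in parental cells (0.92 ± 0.06, SE, adjusted p = 6.81e-08), and without knockout replicate 4 the rises numbered 2.

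In the list of the p53 family and reported p63 targets, rises numbered 11, falls 3 and genes that did not pass 6, out of 20 measured, with a median of 0.24, against 0.00 over all genes. The rises made up 55% of the list, beside 15.3% of all genes and 24.1% of bright genes, and the falls 15%, beside 19.0% of all genes; 12 of the 20 were bright. The basal keratin genes KRT14 (2.59) and KRT5 (0.78), EGFR (0.69), and TP73 (0.69), a paralogue of TP63, led the rises. The falls were IGFBP3 (-0.55), which encodes a binding protein of insulin-like growth factors, the matrix protein gene FRAS1 (-0.46) and the adhesion gene NECTIN1 (-0.44). TP73 was dim, at 5.07 ± 0.12 in knockout and 4.39 ± 0.23 in parental cells. KRT14 was at 10.70, 10.84, 10.90, 10.82 and 10.98 in knockout replicates 1 to 5, and its parental mean was 8.26 ± 0.13. TP63 itself was not analysed here, so these genes say nothing of its own level.

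Other epithelial transcription factors moved in both directions, with 3 rises, 6 falls and 8 that did not pass among 17 measured, and a median of 0.03. The 52.9% that passed stand beside 34.3% of all genes and 55.6% of bright genes, and 11 of the 17 were bright. Besides TFCP2L1, TBX3 rose by 0.41, while KLF4 and GATA3, factors of epithelial differentiation and of luminal breast cells, fell by 0.48 and by 0.44 (adjusted p = 0.000167 and adjusted p = 0.00122). The count of falls was 3 without knockout replicate 2, without parental replicate 3 or without parental replicate 5. Among 13 EMT factors 4 rose, FOXQ1 (0.98), TCF4 (0.54), SNAI2 (0.48) and ZEB2 (0.24), 1 fell, TWIST2 (-0.37), and 8 did not pass. In either direction 38.5% passed beside 34.3% of all genes, a share near the background. The rises made up 30.8% of the list, beside 15.3% of all genes and 24.1% of bright genes. The falls made up 7.69%, beside 19.0% of all genes, and 7 of the 13 were bright. ZEB1, a repressor of ESRP1 in carcinoma cells, was dim at 5.11 ± 0.07 in knockout and 5.15 ± 0.13 in parental cells, and did not pass. ZEB2, which passed upward, was dim too, at 5.27 ± 0.06 in knockout and 5.03 ± 0.10 in parental cells, and its groups overlapped.

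**Figure D4:**
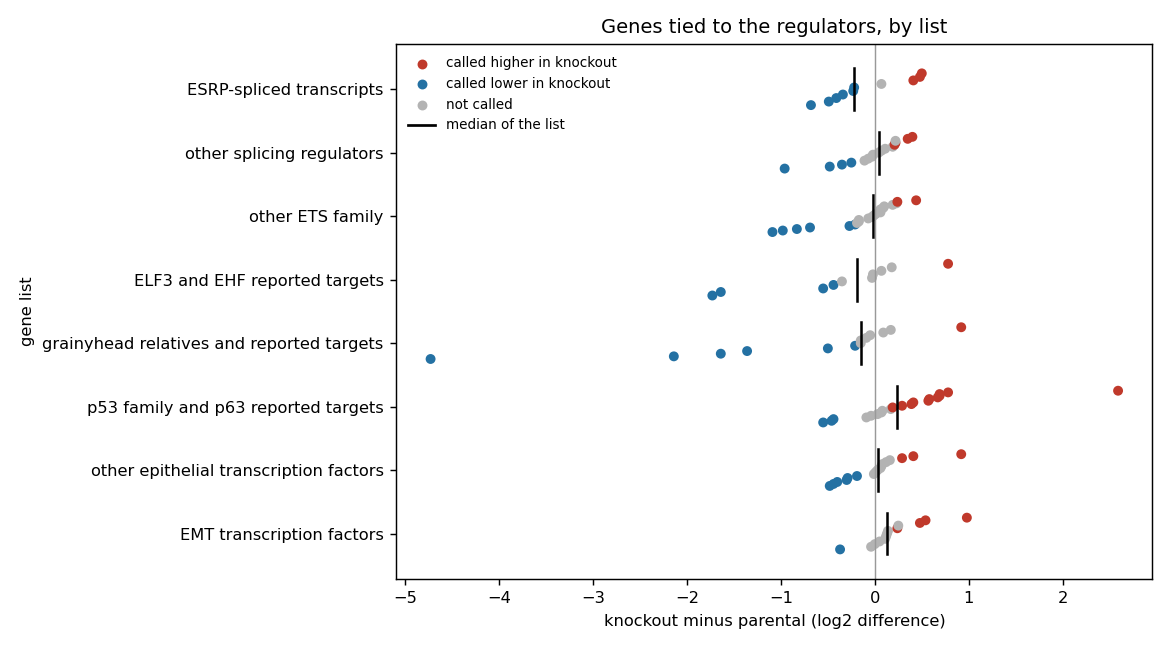
Knockout minus parental log2 difference of each measured gene (points) in the 8 lists, in red where it passed upward, blue where it passed downward and grey where it did not pass at an adjusted p of 0.05, with the median of the list as a black bar. The p63 list lies mostly right of zero with a median of 0.24, and the grainyhead list has its widest spread to the left, down to OCLN at -4.73, whose knockout level was not told from background.

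Some markers of other cell types also differed between the groups. Of 9 fibroblast markers, 5 rose and 2 fell, and their mean signal ranged from 5.58 to 5.76 in knockout and from 4.98 to 5.09 in parental arrays. FBLN1 rose by 1.35. DCN, which encodes decorin, rose by 2.06, a size that is not exact, since its parental mean of 4.06 lay under every array median, while LUM, another proteoglycan gene of fibroblasts, lay at 3.08 ± 0.06 in knockout and 3.17 ± 0.23 in parental cells, and 4 of the 9 had both group means under 5.49. Of 8 endothelial markers 1 rose, KDR (1.69), or 2 without knockout replicate 2 or parental replicate 3. Of 5 immune markers 1 rose and 2 fell, and of 5 adipocyte markers 1 fell. The shares that passed were 77.8% of the fibroblast, 12.5% of the endothelial, 60% of the immune and 20% of the adipocyte markers. Beside them stand 34.3% of all genes, 55.6% of bright genes and 13% of dim genes. The endothelial and adipocyte shares were under that of all genes, but only 1 of the 8 endothelial and 0 of the 5 adipocyte markers were bright. Their shares are therefore to be read beside the 13% of dim genes. The part of such cells in the differences of ESRP1, EHF and GRHL3 was not tested.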

How the data were processed

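RNA was measured on 10 Affymetrix arrays, 5 of H2A.X knockout and 5 of parental MCF10A cells. Each deposited column holds 1 array's log2 signals, which the authors had summarised to probe sets and normalised. Expression Console and Partek 6.6 are named in the submitters' processing notes. How and in which order they were run, and with what filter, is not given in the sources used here, and the scale was inferred from the range of the values. The number of arrays limits the precision, with a median SE of 0.08.

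Of 53617 probe sets, 16098 had 1 gene symbol in the platform annotation, 0 had several and 37519 had none. Symbols were updated by Entrez identifier in RefSeq of GRCh38.p14 (16098 matched). The probe set with the highest mean stood for each of 14884 genes.

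Knockout minus parental differences were fitted in R 4.3.3 with limma 3.58.1 (lmFit, then eBayes) with no covariate, no filter and Benjamini-Hochberg adjustment over all genes, at 0.05, two-sided. The procedure was tested on simulated data. Python 3.11.15, pandas 2.3.3 and matplotlib 3.10.9 were used for joins, motif search and plots. The members and lists were chosen with earlier results of these data known. Named genes were the members, up to 4 genes of each list that passed and whose groups did not overlap, ranked by absolute difference, the 3 genes most like ESRP1, EHF and GRHL3, their neighbours, EPCAM and KRT5. Further genes named were chosen after their values were seen. The gene of H2A.X was not analysed here, so the labels were not checked by it.

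The groups share replicate numbers, but deviations of same-numbered arrays correlated at -0.01 to 0.20, so the numbers were not taken as pairs. Alternatives were quantile normalisation, median centring, leaving out dim genes, an intensity trend, a replicate block, the mean of probe sets, all probe sets in the fit and leaving out each array.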

Additional observations from a re-analysis of the deposited data

Results flagged for a closer look

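None of the 18 groups of 5 arrays of the regulators' probe sets held an array far from the others by Dixon's ratio at its critical value for 5 arrays (0.71). Among the other named genes 8 groups did, of 154 groups tested in all, and chance flags about 1 in 20. PTBP2 was at 7.57 in knockout replicate 5, against 6.93 to 7.05 in the other knockout arrays. TBX3 was at 6.19 in knockout replicate 1, against 6.43 to 6.49. NCMAP, a neighbour of GRHL3, was at 3.75 in knockout replicate 2, against 4.31 to 4.43. SPX was at 9.19 in parental replicate 5, against 9.10 to 9.12 in the other parental arrays. GDA was at 3.85 in parental replicate 5, against 4.29 to 4.43. PDP1, a neighbour of ESRP1, was at 5.49 in parental replicate 5, against 5.23 to 5.29. ELF5 was at 3.01 in parental replicate 4, against 3.25 to 3.33. LINC02800, a neighbour of GRHL3, was at 4.16 in parental replicate 4, against 4.85 to 5.04.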

How the results depend on the processing

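All 132 values of the 8 regulators under the alternatives stayed within 1 SD of the main value with none reversed. This was largely fixed in advance, since leaving out 1 array of 5 cannot move a difference by so much. The intensity trend, the replicate block, leaving out dim genes and all probe sets in the fit change the SE and not the difference. The closeness of these values is therefore not a check of the differences. ESRP1 ran from -3.88 to -3.69, EHF from 3.01 to 3.09 and GRHL3 from 0.76 to 0.90 with an array left out. Rises over all genes numbered 2273, or 2069 to 2366 with an array left out and 1862 to 2554 otherwise, and falls 2835, or 2616 to 2762 and 2437 to 2929. With the replicate block they were 2201 and 2771, and the block changed no call of a named gene. Counts of lists moved by over 1.5 times as follows. Rises of EHF and ELF3 targets were 2 under quantile normalisation, rises of other ETS genes 4 under centring, falls of the p63 list 1 without dim genes (those with both group means under 5.49), where fewer genes were tested, and falls of other epithelial factors 3 with all probe sets in the fit and 3 to 5 with an array left out. Rises of the grainyhead list were 1 to 2 with an array left out. Of the marker lists, endothelial rises were 2 under centring and with the block and 1 to 2 with an array left out. Without dim genes, fibroblast falls were 0, immune falls 1 and adipocyte falls 0. RAD54B ended at an adjusted p of 0.0515 with an intensity trend, 0.0863 with all probe sets in the fit, and 0.0523 to 0.0913 without knockout replicate 2, 3, 4 or 5 or parental replicate 1, 3 or 5. CAPRIN1 passed without dim genes (adjusted p = 0.0245) and with a trend (0.00521), CNR2 without knockout replicate 2 (0.0456) and ABTB2 without parental replicate 2 (0.0172). Differences near zero changed sign: ELF5 was 0.00 under quantile normalisation, and with an array left out ELF5 ran from -0.05 to 0.06, NCMAP from -0.05 to 0.16, MIR378F from 0.00 to 0.21 and GEM from -0.08 to 0.04. The causes were not tested. No background signal or detection call was used, so levels under the array median, such as those of GRHL2, of OCLN in knockout and of DCN in parental cells, could not be told from background.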
